A study of Mus musculus with 8 samples.

Results

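The genes described here encode voltage-gated potassium channel subunits, and they were measured in the adult mouse brain after ethanol exposure before birth. They are the 32 genes named Kcna, Kcnb, Kcnc, Kcnd, Kcnf, Kcng, Kcnh, Kcns or Kcnv followed by a number that had a probe set of 1 gene symbol, out of 19938 such genes. Their 34 probe sets were among 21789 of 1 symbol and 35556 on the array, and 1 probe set per gene was chosen by the highest mean over the 8 arrays. That choice mattered for 2 genes: Kcna2, where the probe set kept had a mean of 11.40 and the other 10.13, and Kcnh8, with 6.81 and 6.37. The name rule also caught Kcnd3os, an antisense RNA gene of the Kcnd3 locus, which encodes no channel and is given separately. Kcnf1 was singled out with its differences between ethanol and saline already known, so its values are given as a description without a test.

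Voltage-gated potassium channels open when a membrane depolarizes, and the potassium that leaves the cell repolarizes it. In neurons they set the threshold, width and frequency of action potentials. Each channel is a tetramer of pore-forming subunits. Subunits of the Kcna (Shaker), Kcnb (Shab), Kcnc (Shaw) and Kcnd (Shal) subfamilies form working channels on their own, as do the Kcnh subunits (ether-a-go-go, Erg and Elk). Subunits of the Kcnf, Kcng, Kcns and Kcnv subfamilies do not. They are electrically silent alone and modify channels by joining with Kcnb subunits. Kcnf1 is the only gene of its subfamily in the set.

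RNA came from whole brains of male C57BL/6J mice killed at postnatal day 70. Their mothers, also C57BL/6J, had received an equal volume of saline, or 2 subcutaneous injections of ethanol in saline, 2.5 g/kg each, per day on gestational days 8 and 11 (early exposure) or 14 and 16 (late exposure). Each of the 4 groups (early ethanol, early saline, late ethanol, late saline) was measured on 2 Affymetrix arrays. RNA of 3 mice that shared no litter made 1 pool per array, so that a timing rested on 12 mice. A group was thus only 2 pools, and the spread between single mice was not measured. The paper describes this pooling for the microRNA arrays of its injection models, and it is assumed here for the late arrays. Values are on the log2 scale, and a difference is the mean of the ethanol arrays minus that of the saline arrays of the same timing, where -0.26 or 0.26 on the log2 scale corresponds to the study's threshold of 1.2-fold.

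The arrays of each timing correlated at 0.993 or above across probe sets. The median of an early array lay between 6.74 and 6.84 and that of a late array between 7.21 and 7.30, so levels are not set across timings. Background was read from 1210 probe sets of olfactory and vomeronasal receptor genes, mostly silent in the brain. Their 95th percentile ranged from 6.41 to 6.55 (early arrays) and from 7.28 to 7.70 (late arrays), and a gene is called at background where its mean did not exceed the mean percentile of that timing (6.48 and 7.46). Markers of neurons, astrocytes and oligodendrocytes all lay above background, as the labelled tissue should have them. Some marker lists differed between the groups. In early ethanol, 6 of 6 olfactory bulb markers were lower (median difference -0.54, array means 7.14 to 7.46 in ethanol and 7.74 to 7.88 in saline) and 4 of 4 nasal gland markers higher (median 2.04, 7.38 to 9.56 against 6.21 to 6.41), of which 2 lay above background. Oligodendrocyte markers were higher in 5 of 5 (median 0.15, 11.07 to 11.23 against 10.89 to 11.12), and pituitary markers in 4 of 4 (median 0.15, 6.06 to 8.10 against 6.38 to 7.48). In late ethanol, 6 of 6 cerebellar neuron markers were lower (median -0.27, 10.54 to 10.88 against 10.92 to 11.01), as were 5 of 5 oligodendrocyte markers (-0.12, 11.57 to 11.61 against 11.68 to 11.74) and 6 of 6 neuron markers (-0.054, 11.87 to 11.97 against 11.94 to 12.01), while 4 of 4 pituitary markers were higher (0.12, 6.78 to 7.04 against 6.62 to 6.70), with 1 of them above background. The part of these markers in the results below was not tested.

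Kcnf1 had the lowest difference of the 32 genes in both timings. Of all 23410 probe sets with a symbol, 162 (0.69%) in early and 87 (0.37%) in late ethanol were as low or lower, itself included. The probe set of Kcnf1 (10399555) lay above background on all 8 arrays. In the early arrays it was at 8.29 and 8.48 in ethanol and at 8.83 and 8.51 in saline. Both ethanol arrays were below both saline arrays, with a gap of only 0.038 between the nearest of them. The means were 8.38 ± 0.13 (SD, n = 2) and 8.67 ± 0.22, a log2 difference of -0.29 (SE 0.13), or 1.22-fold lower in ethanol. In the late arrays it was at 8.95 and 9.15 in ethanol and at 9.44 and 9.46 in saline. Here the groups were 0.29 apart at their nearest arrays, with means of 9.05 ± 0.14 and 9.45 ± 0.014. The late difference was -0.40 (SE 0.13), or 1.32-fold lower.

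The early difference of Kcnf1 depended on the arrays kept. Leaving out saline replicate 1 gave -0.13, and leaving out saline replicate 2 gave -0.45. It was -0.20 and -0.38 with ethanol replicate 1 or 2 removed. The late difference moved less, between -0.50 and -0.30 without any 1 late array. In whole-brain RNA, fewer cells that express a gene and less of its RNA per cell cannot be told apart. Markers of cortical and hippocampal projection neurons, measured for 5 of 6 listed genes, had a median difference of -0.001 in early and -0.021 in late ethanol. Their array means were 10.85 to 11.06 in ethanol and 10.69 to 11.06 in saline for early exposure, and 11.16 to 11.32 and 11.25 to 11.36 for late exposure. Of the 5 genes, 3 were lower in early ethanol (range -0.056 to 0.28) and 4 in late ethanol (-0.17 to 0.0065). The neuron and cerebellar neuron lists were each higher in 5 of 6 genes in early ethanol and lower in 6 of 6 in late ethanol. The part of these markers in the difference of Kcnf1 was not tested.

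**Figure D1:**
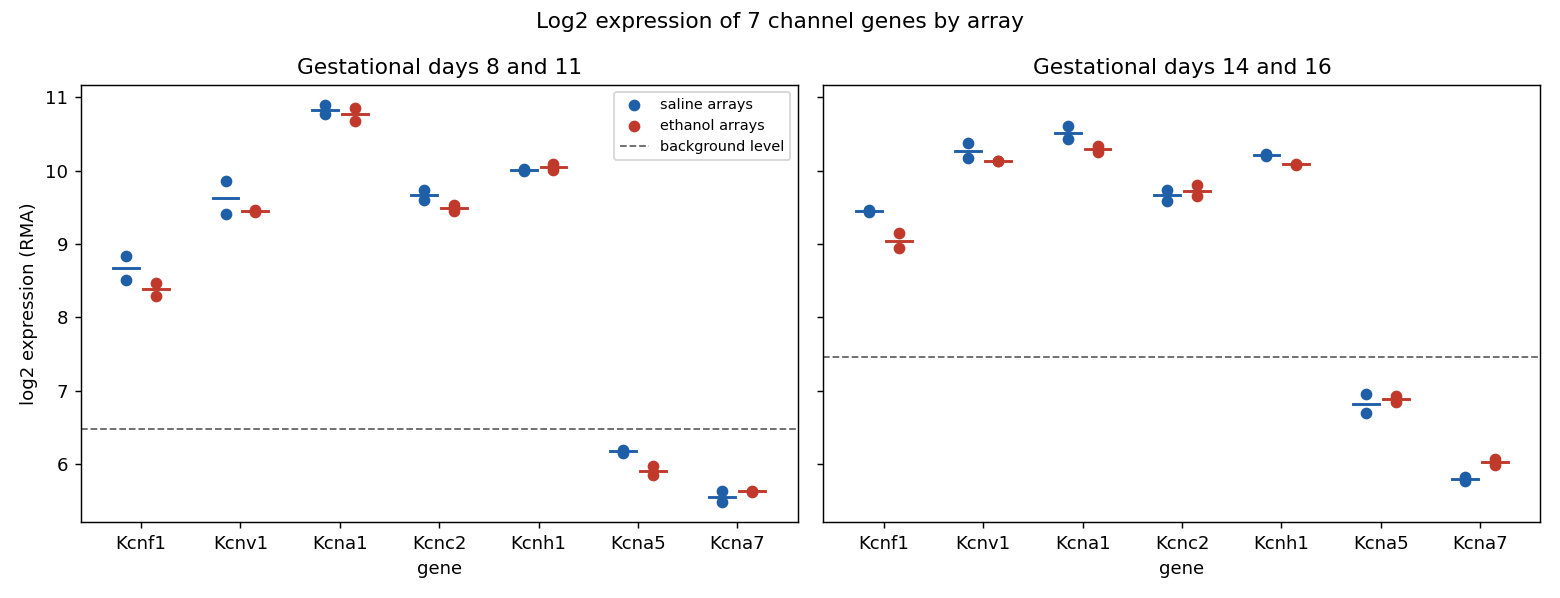
Log2 expression (vertical axis, RMA) of 7 channel genes (horizontal axis) on the arrays of early exposure (left) and late exposure (right). Each point is an array (blue for saline, red for ethanol), with short bars for the group means and a dashed line at the mean background level (6.48 and 7.46). Both ethanol arrays of Kcnf1 lie below both saline arrays in each timing. Those of Kcnc2 and Kcna5 do so in the early arrays, and those of Kcnv1, Kcna1 and Kcnh1 in the late arrays. Both ethanol arrays of Kcna7 lie above both saline arrays in the late arrays. Kcna5 and Kcna7 lie under the background line.

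The other modifier subunits, 9 genes of the Kcng, Kcns and Kcnv subfamilies, had smaller differences than Kcnf1. The median over them was -0.0084 in early and -0.040 in late ethanol, with a range from -0.18 to 0.056 and from -0.14 to 0.14. Kcnv1, a brain modifier of Kcnb channels, was the lowest of these 9 in both timings. Its early values were 9.44 and 9.46 in ethanol and 9.85 and 9.41 in saline, a difference of -0.18 (SE 0.14), and the groups overlapped because saline replicate 2 was the lowest of the 4 arrays. Without saline replicate 1 the early difference of Kcnv1 was 0.042. Its late values were 10.13 and 10.14 in ethanol and 10.37 and 10.17 in saline, a difference of -0.14 (SE 0.14), without overlap but with a gap of 0.031. Kcnv2, a subunit known from retinal photoreceptors, lay at background in both timings, with differences of 0.056 and -0.015.

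Kcns2 was the member of the Kcns subfamily with the smallest p in early ethanol. It was at 6.86 and 6.97 in ethanol and at 7.08 and 7.06 in saline, a difference of -0.15 (SE 0.10) without overlap, and in the late arrays it overlapped (-0.040). Kcns1 differed by -0.0084 and -0.064, the latter at background, and Kcns3 by -0.035 and 0.14. The late value of Kcns3 rested on ethanol replicate 1, at 7.74 against 7.43 to 7.45 on the other 3 late arrays, and was -0.016 without it. In the Kcng subfamily, Kcng1 differed by 0.00067 and -0.10, Kcng2 by 0.053 and 0.0025 (the latter at background), Kcng3 by -0.056 and 0.12, and Kcng4 by 0.030 and -0.097. Kcng1 was lower on both late ethanol arrays (8.72 and 8.72) than on both saline arrays (8.77 and 8.88). No gene of these 3 subfamilies had an unadjusted p under 0.05 in limma in either timing. Of all 23410 probe sets only 401 (early) and 583 (late) did, so nothing is read from that count.

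The Kcna genes encode the low-threshold channels of axons and nerve terminals, and 8 of them were measured. In early ethanol 6 were lower and 2 higher, with a median of -0.055, and in late ethanol 3 were lower and 5 higher, with a median of 0.047. Kcna1, whose loss causes episodic ataxia and epilepsy, was lower in late ethanol, at 10.25 and 10.34 against 10.61 and 10.43 in saline. That difference was -0.22 (SE 0.10), with an unadjusted p = 0.059 and an adjusted p = 1 in limma. It lay between -0.31 and -0.14 without any 1 late array. In the early arrays Kcna1 overlapped, at 10.68 and 10.86 against 10.90 and 10.77 (-0.062).

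Kcna5 and Kcna7, known mainly from heart and muscle, had the largest Kcna differences in the early and late arrays, but both lay at background. Kcna5 was at 5.97 and 5.84 in early ethanol and at 6.19 and 6.16 in saline, a difference of -0.27 (SE 0.10, unadjusted p = 0.031, adjusted p = 1 in limma). It differed by 0.061 in the late arrays. Kcna7 was at 6.07 and 5.98 in late ethanol and at 5.82 and 5.77 in saline, a difference of 0.23 (SE 0.085, unadjusted p = 0.026, adjusted p = 1 in limma). That was under 1.2-fold, and the early difference was 0.072. Kcna10, also at background, differed by -0.025 and 0.17.

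The remaining Kcna genes lay above background. Kcna2, the main partner of Kcna1 along axons, was at 11.60 and 11.46 in early ethanol against 11.52 and 11.49 in saline (0.023), and differed by 0.034 in late ethanol. Its other probe set (10495197) gave a different early value, at 9.81 and 9.70 in ethanol and 9.95 and 10.01 in saline, or -0.22 (SE 0.11) without overlap, and 0.061 in the late arrays. The probe sets of Kcna2 thus differed in sign for early exposure. Kcna3 differed by -0.048 and -0.017, Kcna4 by -0.10 and 0.069, and Kcna6 by -0.086 and -0.075.

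Kcnb2, of the delayed rectifier subfamily that the modifier subunits join, was at 8.77 and 8.56 in early ethanol and at 8.72 and 8.77 in saline, a difference of -0.076 with overlap. In the late arrays it was at 9.03 and 9.10 in ethanol and at 8.91 and 8.96 in saline, or 0.13 (SE 0.090) without overlap. The Kcnc genes encode the fast channels of neurons that fire at high rates. The 3 measured were all lower in early ethanol, where 59.8% of all probe sets were lower. Kcnc2 was at 9.53 and 9.44 in ethanol and at 9.74 and 9.61 in saline, a difference of -0.18 (SE 0.096) without overlap. It ranged from -0.25 to -0.12 without any 1 early array. Kcnc1 differed by -0.11 (SE 0.083), also without overlap, and Kcnc4 by -0.013. In late ethanol the values were 0.061 for Kcnc2, -0.036 for Kcnc1 and -0.11 for Kcnc4.

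The Kcnd genes, which carry the transient A-type current of dendrites, differed by less than 0.1 in either direction. Kcnd1, Kcnd2 and Kcnd3 differed by 0.026, 0.022 and 0.047 in early ethanol and by 0.056, -0.059 and -0.038 in late ethanol, with Kcnd1 at background in the late arrays. The 7 Kcnh genes measured had medians of -0.014 and -0.0045. Kcnh1, the ether-a-go-go channel itself, was at 10.08 and 10.09 in late ethanol and at 10.22 and 10.19 in saline, a difference of -0.12 (SE 0.075) without overlap. Its early groups overlapped (0.037). Kcnh3, an Elk channel of the forebrain, differed by -0.12 and -0.10. Kcnh8, another Elk gene, differed by -0.036 and by 0.15 at background. Kcnh2, the Erg channel known for its role in the heart, differed by -0.014 and -0.013. Kcnh4 (-0.011 and 0.054, the latter at background), Kcnh5 (-0.028 and 0.034) and Kcnh7 (-0.0089 and -0.0045) were the other Kcnh genes measured.

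**Figure D2:**
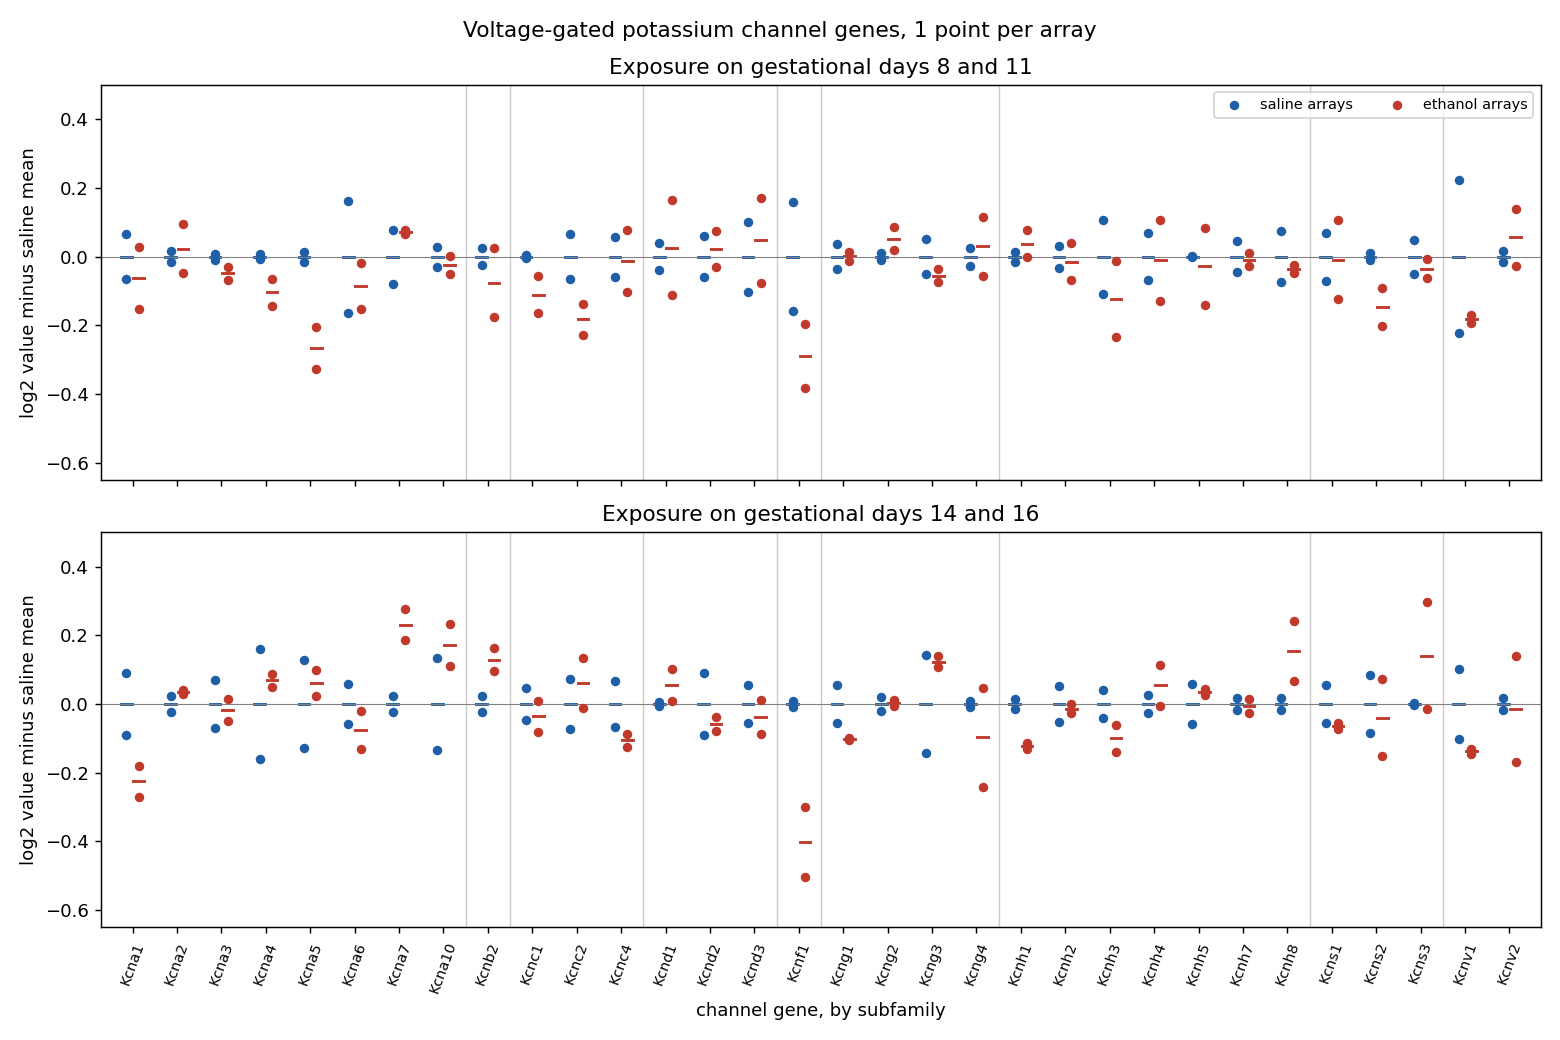
Log2 value minus the mean of the saline arrays of that timing (vertical axis) for the 32 channel genes (horizontal axis, by subfamily between grey lines), for early exposure above and late exposure below. Points are arrays (blue for saline, red for ethanol) and bars are group means. Kcnf1 has the lowest ethanol mean in both panels (-0.29 and -0.40), and most other genes lie within 0.1 of the saline mean.

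Across the whole family, early ethanol was compared with saline for 32 genes, of which 22 were lower and 10 higher. The median difference was -0.027, against -0.020 over all 23410 probe sets with a symbol, of which 59.8% were lower. Of the 32 genes, 7 were lower and 1 higher without overlap of the arrays, where 18.9% and 7.50% of all probe sets were. At an unadjusted p under 0.05 and 1.2-fold, 2 genes were lower (Kcna5 and Kcnf1) and 0 higher, where 0.645% and 0.278% of all probe sets were. Kcnf1 was chosen with this contrast known and Kcna5 lay at background, so nothing is read from that count. After adjustment in limma 0 probe sets passed (0%), with 401 at an unadjusted p under 0.05. An unmoderated analysis of variance put 0 of the 32 genes past the same thresholds. The limma count was 0 without early saline replicate 1 and 1 without either early ethanol array or any 1 late array, which enter through the shared variance.

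For late exposure 18 of the 32 genes were lower and 14 higher, with a median of -0.014, against -0.0067 over all probe sets, of which 52.7% were lower. Without overlap 8 genes were lower and 5 higher, where 15.7% and 12.7% of all probe sets were. At an unadjusted p under 0.05 and 1.2-fold, 1 gene was lower, Kcnf1 itself, and 0 were higher, where 0.722% and 0.440% of all probe sets were. Kcnf1 was chosen with this contrast known too, so nothing is read from that count. After adjustment 0 probe sets passed in limma (0%), with 583 at an unadjusted p under 0.05, and the unmoderated analysis of variance put 0 of the 32 genes past the thresholds. Without late ethanol replicate 2 or late saline replicate 2 the count was 3, without late saline replicate 1 it was 2, and without late ethanol replicate 1 it was 0.

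The precision of 2 arrays per group bounds what these comparisons could show. The SE of a difference lay between 0.075 and 0.14 for the 31 genes other than Kcnf1, and the median 95% interval reached 0.23 to either side of its estimate. For all 31 of these genes the interval, not adjusted for their number, lay within 1.5-fold in both directions in early and in late exposure. It lay within 1.2-fold for 14 genes in early and 7 in late exposure. For the other genes these arrays did not exclude a change of 1.2-fold. These 31 genes include 4 at background in early and 9 in late exposure. At background a narrow interval does not bound a change in RNA. The difference was smaller than 0.1 in either direction for 24 genes in early and 19 in late exposure.

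**Figure D3:**
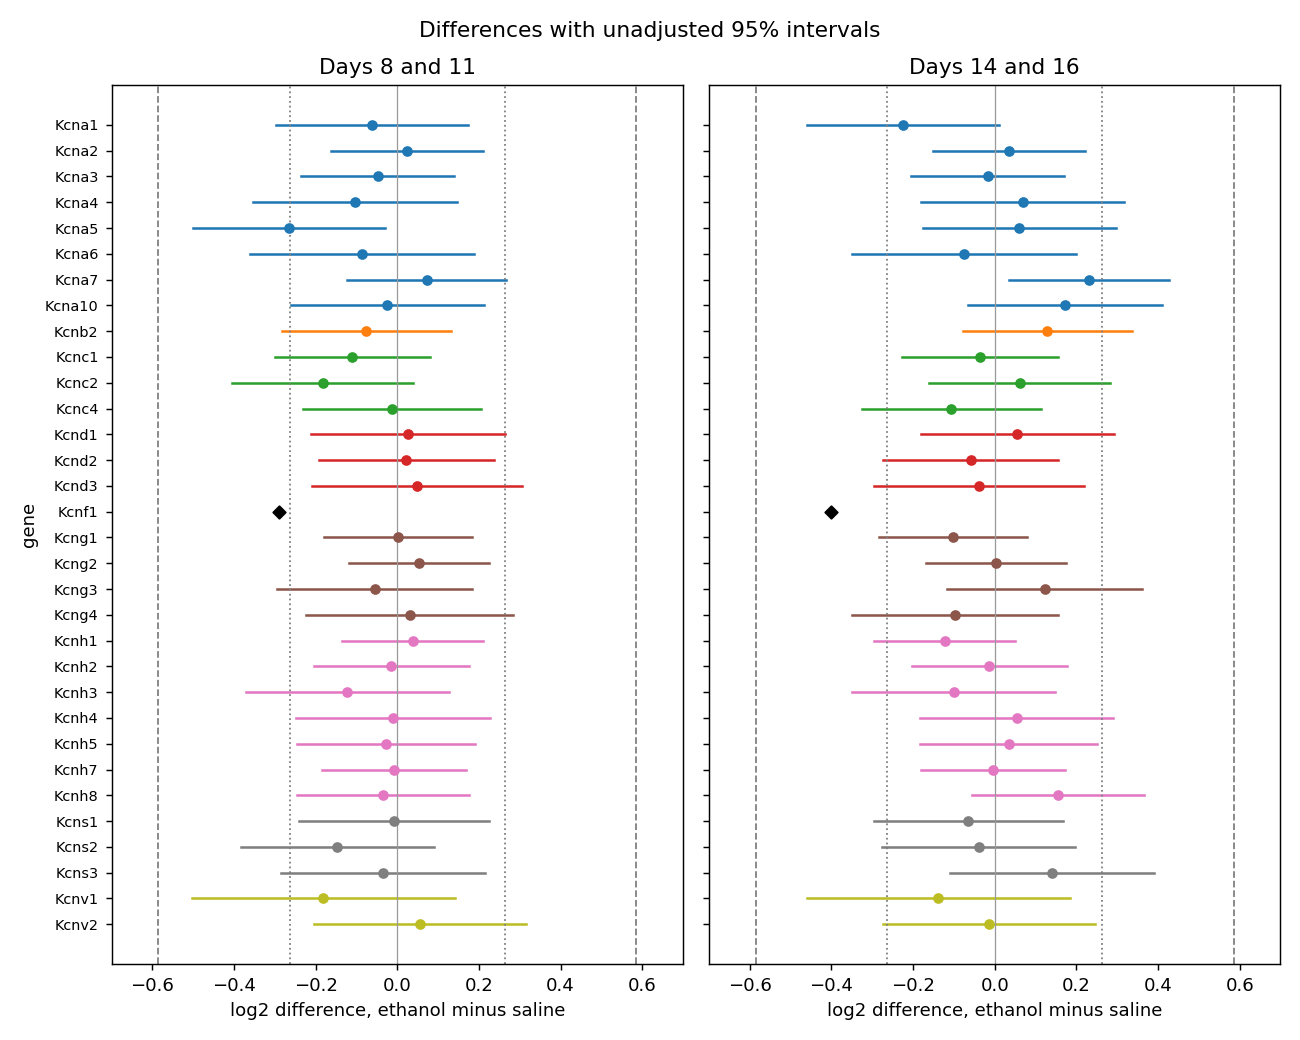
Log2 difference, ethanol minus saline (horizontal axis), for each channel gene (vertical axis, coloured by subfamily) in early (left) and late (right) exposure, with lines for unadjusted 95% intervals, dotted lines at 1.2-fold and dashed lines at 1.5-fold. The intervals of all 31 genes other than Kcnf1, those at background included, lie inside the dashed lines. Kcnf1 (diamond, -0.29 and -0.40) is drawn without an interval because it was singled out with these values known.

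The early and late differences come from separate arrays, each timing with its own saline group. Among the 31 genes other than Kcnf1, 15 had the same sign in both timings, 11 of them lower and 4 higher in both. Another 10 were lower in early and higher in late ethanol, and 6 were the reverse. Across these 31 genes Pearson's r between the early and late differences was 0.054 and Spearman's rho -0.021, given as a description, since genes on one array are not independent. None of the 31 was without overlap in the same direction in both timings, as Kcnf1 was, and none in opposite directions. In a single timing, 18.9% (early) and 15.7% (late) of all probe sets were lower without overlap, and 7.50% and 12.7% higher. The share without overlap in both timings was not counted, and Kcnf1 was chosen with its values known. Nothing is read from that count. In limma the early effect minus the late effect had an unadjusted p under 0.05 in 0 of the 32 genes, where 2.06% of all probe sets (483) did, and 0 probe sets passed after adjustment (0%). Kcna5 came nearest among the 31 genes, at -0.33 with an unadjusted p = 0.053 (adjusted p = 1.00 in limma).

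**Figure D4:**
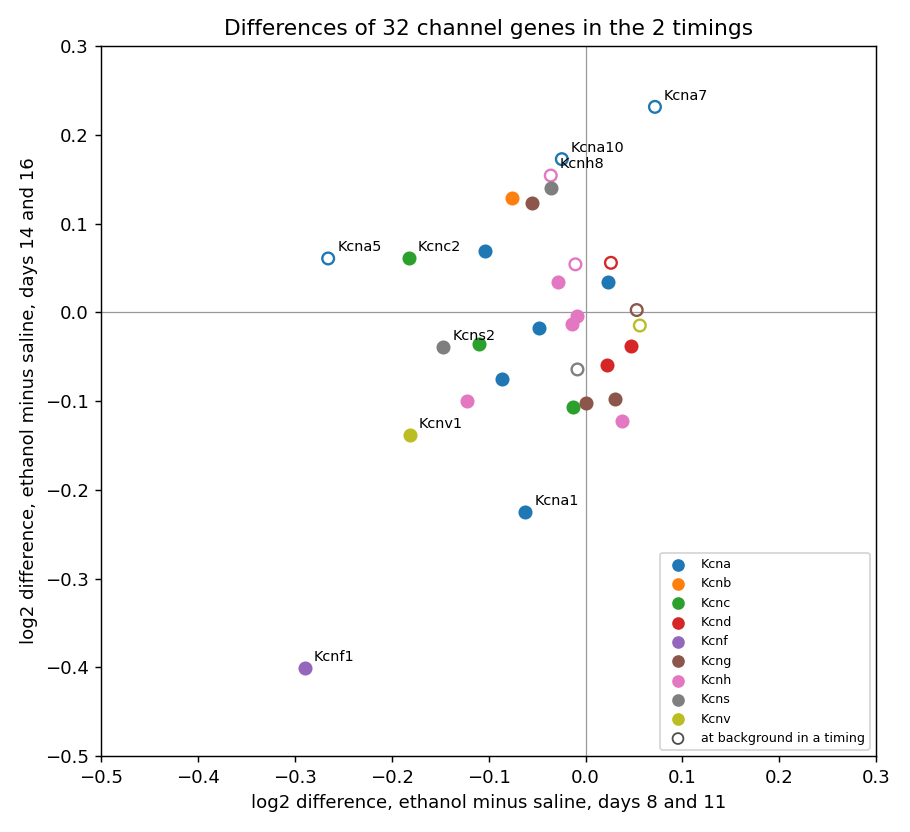
Log2 difference in late exposure (vertical axis) against early exposure (horizontal axis) for the 32 channel genes, coloured by subfamily, with hollow points for genes at background in either timing. Kcnf1 stands at the lower left (-0.29 and -0.40), and the other 31 points show little relation between the timings (Pearson's r of 0.054).

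Partner genes of these channels were read from a list that held the cytoplasmic beta subunits, the Kcnip and Dpp subunits of A-type channels, the Kcne subunits and proteins that anchor channels in the membrane. Of its 24 genes, 23 were measured. In both timings 12 were higher and 11 lower, with medians of 0.010 and 0.0056, and 0 passed the study's thresholds in either direction. Of all probe sets, 0.645% passed as lower and 0.278% as higher in early exposure, and 0.722% and 0.440% in late exposure. Amigo1, an adhesion protein bound to Kcnb channels, had the smallest early p, at 9.30 and 9.28 in ethanol against 9.50 and 9.46 in saline (-0.19, SE 0.091, without overlap). The scaffold gene Dlg1 differed by -0.15 and Dpp6 by 0.10 in early ethanol. In late ethanol Kcnip3 differed by -0.16 without overlap, while Kcne1 (0.18) and Kcne3 (0.12) lay at background.

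Other potassium channel pore genes (Kcnq, Kcnj, Kcnk, Kcnn, Kcnt, Kcnma and Kcnu) numbered 40. In early ethanol 25 were lower and 15 higher (median -0.019), and in late ethanol 20 were lower and 20 higher (median -0.0033). The study's thresholds were passed by 0 genes in early exposure, where 0.645% of all probe sets passed as lower and 0.278% as higher. In late exposure 1 of the 40 passed, as lower, where 0.722% of all probe sets passed as lower and 0.440% as higher. It was Kcnj2, an inward rectifier that holds the resting potential, at 8.01 and 8.31 in late ethanol and 8.67 and 8.54 in saline, a difference of -0.44 (SE 0.15, unadjusted p = 0.019, adjusted p = 1 in limma). Kcnj13, an inward rectifier of transporting epithelia, differed by -0.26 and Kcnj5, at background, by 0.15. In early ethanol the smallest p belonged to Kcnj15 (-0.16, at background), the calcium-activated channel gene Kcnn3 (0.19) and Kcnj11 (-0.13).

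Gene order in the GRCm38.p6 annotation places some members side by side. Kcna3, Kcna2 and Kcna10 are consecutive protein-coding genes, as are Kcna5, Kcna1 and Kcna6. In the latter group the early differences were -0.27, -0.062 and -0.086, and the late differences 0.061, -0.22 and -0.075, with Kcna5 at background in both timings. Around Kcnf1, 5 of the nearest 6 protein-coding genes had a probe set of 1 symbol. Pdia6, a protein disulfide isomerase of the endoplasmic reticulum and the next gene on one side, differed by 0.015 in early and -0.55 in late ethanol. The next gene on the other side, 2410004P03Rik, differed by 0.10 and 0.021 at background. Pqlc3 (-0.13 and 0.047) and Atp6v1c2 (-0.096 and 0.027), both at background, and Nol10 (-0.12 and -0.18) lay farther out. Nol10 was lower in ethanol without overlap in both timings, with gaps of 0.098 and 0.080. Pqlc3 and Atp6v1c2 in early and Pdia6 in late ethanol were also lower without overlap, and 2410004P03Rik was higher in early ethanol. Of all probe sets, 18.9% (early) and 15.7% (late) were lower without overlap, and the share in both timings was not counted. These neighbours were looked at after the values of Kcnf1 were known.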

How the data were processed

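Brain RNA was hybridized to Mouse Gene 1.0 ST arrays. The deposited log2 values were made by the authors from probe-level files with Partek software (6.6 per the submitters' processing notes), using RMA, adjustment for GC and quantile normalization. The methods describe this for the early arrays only. The late arrays have other medians and appear to have been normalized apart. No coordinates are printed, as the build behind the array annotation was not given in the sources used here. RefSeq's GRCm38.p6 table served only for names and gene order.

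Of 35556 probe sets, 12146 (34.2%) had no symbol and were left out, 1621 had several symbols, and 23410 were tested together. All 32 members matched a current RefSeq gene by identifier. Symbols came from the platform annotation.

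All 8 arrays entered 1 limma model (3.58.1, under R 4.3.3) of 4 group means, from which ethanol minus saline was taken in each timing, with moderated variances (4 residual and 4.28 prior degrees of freedom) and Benjamini-Hochberg adjustment over 23410 probe sets. Each array holds a separate pool of mice, so p-values measure the spread between pools. The fit was tested on simulated data. Members, lists and tests were chosen with earlier results of these data known. Genes were named by unadjusted p (6 per direction and timing, and the smallest of each subfamily), with all modifier subunits added, and 3 per timing from each comparison list. Markers of 11 cell types or regions were read as medians. The lists for microglia, striatal neurons and choroid plexus had medians of -0.012, -0.032 and -0.0086 in early and -0.00083, 0.062 and -0.087 in late ethanol, and those for neurons and astrocytes 0.072 and -0.0087 in early and -0.054 and -0.057 in late ethanol. Early medians were 0.15 for oligodendrocytes, 0.026 for cerebellar neurons and 0.15 for the pituitary list, and late medians -0.12 for the olfactory bulb and -0.058 for nasal glands.

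Alternatives were an unmoderated analysis of variance as in the methods, limma on the 4 arrays of a timing, a replicate block, median centring, quantile normalization, removal of the lowest 25% of probe sets, every probe set, an intensity trend, array weights, the mean of all probe sets of a gene and leaving out each array. Where an array was left out, the lone array was assumed to vary like the others. Plots used matplotlib 3.10.9 (Python 3.11.15).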

Additional observations from a re-analysis of the deposited data

Results flagged for a closer look

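Kcnd3os, the antisense RNA gene at the Kcnd3 locus, was flagged because its ethanol arrays were above saline in early and below it in late exposure, without overlap. In a single timing, 7.50% of all probe sets were higher without overlap (early) and 15.7% lower (late). The share that did both was not counted. It was at 6.72 and 6.75 in early ethanol against 6.62 and 6.67 in early saline, and at 8.04 and 7.97 in late ethanol against 8.12 and 8.05 in late saline. The differences were 0.091 and -0.080 (SE 0.077 each), with nearest arrays 0.050 and 0.0094 apart. The early effect minus the late effect was 0.17 (SE 0.11), with an unadjusted p = 0.16 in limma. Kcnd3 itself differed by 0.047 and -0.038, with overlap in both timings.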

How the results depend on the processing

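The early count of 2 genes past the study's thresholds was 1 in limma on the 4 early arrays, with the replicate block, with median centring, with quantile normalization, without the lowest 25% of probe sets, with every probe set and with the intensity trend, and 0 in the analysis of variance. The gene kept was Kcna5, except for Kcnf1 with quantile normalization. The late count of 1 became 0 in the analysis of variance. Leaving out 1 array gave 0 to 2 genes for early and 0 to 3 for late exposure. The count for the early minus the late effect was 1 with the replicate block (Kcna5), 1 with quantile normalization (Kcnc2) and 0 to 3 without 1 array. The early count was 0 without early saline replicate 1. The median of the members ranged from -0.056 to -0.00076 (early) and from -0.057 to 0.024 (late, higher without late saline replicate 1) without 1 array. Probe sets past an adjusted p of 0.05 numbered 0 to 13 for early exposure without 1 array, with 13 without early ethanol replicate 2. The difference of Kcnf1 kept its direction in every alternative run, from -0.45 to -0.13 (early) and from -0.50 to -0.30 (late). Leaving out 1 array could not change its sign, because its ethanol and saline arrays did not overlap in either timing. Kcnf1 was also singled out with these differences known, so nothing is read from that. Of the 31 other genes, 9 kept their sign without any 1 array in early and 14 in late exposure. Genes without overlap could not do otherwise. These were 6 lower and 1 higher in early, and 7 lower and 5 higher in late exposure. The share of all probe sets that kept their sign was not counted, so nothing is read from these counts. Kcna5 lost its early thresholds with quantile normalization (-0.26) and without early ethanol replicate 2 (-0.20), early saline replicate 1 (-0.25) or early saline replicate 2 (-0.28). The causes were not tested. Same-numbered arrays deviated together in early (r = 0.47) and oppositely in late exposure (r = -0.46) across probe sets, and the labels do not pair them. With crossed late numbers, chosen after seeing the data, the replicate block gave 2 early and 1 late genes. Signal limits 4 members at background in the early and 9 in the late arrays.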
